A study of Mus musculus with 8 samples.

Results

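CD8+ dendritic cells (DCs) of mouse spleen were compared after 16 hours of culture with interferon gamma (IFN-γ) or in medium alone. The comparison holds 4 of the 8 arrays of the series, 2 per group, chosen by the treatment, time and replicate number in the sample titles. Cells of the medium group received no cytokine, and cells of the IFN-γ group received the mouse protein at 200 U/ml. The other 4 arrays hold the same treatments after 4 hours. All 4 groups share the donors' background: female DBA/2J mice aged 60 days, which had received Flt3-L, a growth factor that expands DCs in vivo (10 µg, 9 days). How the cells were purified, and to what purity, is not given in the sources used here. The labels do not say whether the arrays of a group come from separate mice or cultures, and the spread behind the p-values may be technical for that reason.

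IFN-γ, released by T cells and natural killer cells, binds a receptor built of the chains Ifngr1 and Ifngr2, whose kinases are Jak1 and Jak2. Signalling acts through gamma-activated sites (GAS) in DNA and switches on a first set of genes, among them the transcription factor gene Irf1, whose product acts with other factors at interferon-stimulated response elements (ISRE). In antigen-presenting cells the cytokine is known for raising chemokines that draw T cells, defence GTPases and the machinery of antigen presentation, and for suppressing some genes of macrophage differentiation and inflammation.

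Values are the deposited probe set intensities on the log2 scale, where a difference of 1 is a doubling of the intensity. Median intensity was 51.3 to 53.7 on the 8 arrays, and precision is limited by their number. The median of 15 antisense control probe sets, which measure unspecific signal, was 44.9 to 61.2, and a gene at or below this level has a difference of uncertain size. The 3' to 5' signal ratio of Actb, a measure of RNA quality, was 1.63 and 1.57 on the medium arrays of 16 hours and 1.68 and 1.66 on the IFN-γ arrays. The correlation of replicate arrays over all probe sets was 0.993 in medium and 0.989 with IFN-γ. Array 1 differed from array 2 in a like way in both groups: these deviations correlated with r = 0.740 across probe sets. The SD over probe sets of the gap between the paired differences, array 1 less array 1 and array 2 less array 2, was 0.209, against 0.516 with the numbers crossed. Each result was therefore also tested with the replicate number as a block, which compares arrays of the same number, and this value is given where it changes the call.

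After 16 hours, a small set of genes led by the chemokine gene Cxcl9 and the interferon-inducible GTPases was higher with IFN-γ, and a smaller set led by the chemokine gene Ccl9 was lower. Of 8251 genes, each represented by its brightest probe set, limma called 15 higher (0.182%) and 10 lower (0.121%) at an adjusted p under 0.05, the threshold used throughout. When the replicate number was a block, the counts were 42 higher (0.509%) and 37 lower (0.448%), and all 25 genes were among them. The differences of the 15 rises ran from 0.74 to 3.40, with a median of 1.44, and the falls reached -1.83, with a median of -0.84. The median over all genes was -0.0025. Over all 12422 probe sets the counts were 20 higher (0.161%) and 12 lower (0.0966%), or 51 (0.411%) and 54 (0.435%) with the block, and 198 were higher and 228 lower at an unadjusted p under 0.05.

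**Figure D1:**
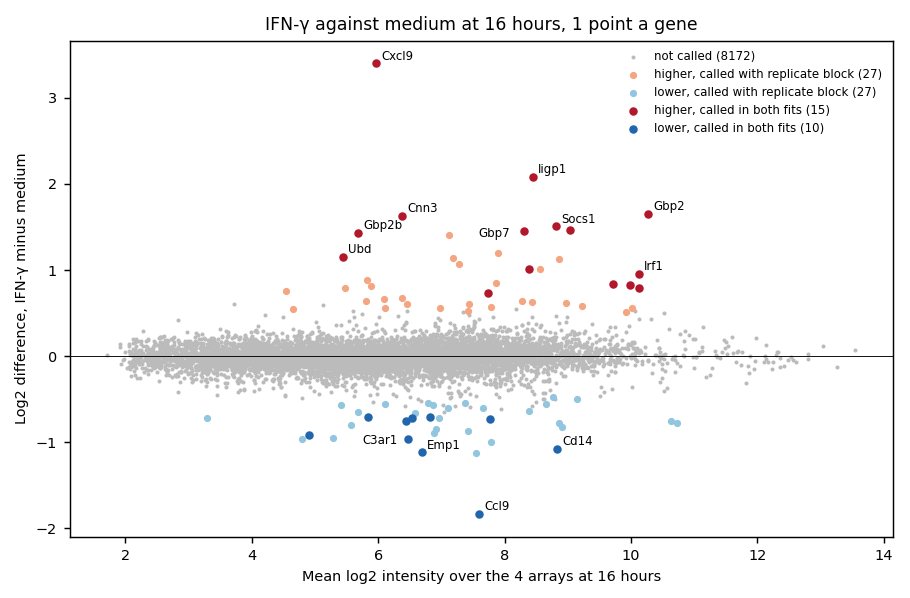
Log2 difference between IFN-γ and medium at 16 hours against the mean log2 intensity over the 4 arrays, 1 point for each of 8251 genes, coloured by the limma call in the fits without the block and with it. Most genes lie near 0, Cxcl9 stands highest at 3.40 and Ccl9 lowest at -1.83.

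Cxcl9, a chemokine that attracts activated T cells through Cxcr3, showed the largest difference of all genes. Its log2 intensity was 4.20 and 4.31 on the medium arrays, below the antisense controls, and 7.26 and 8.06 on the IFN-γ arrays. The difference of 3.40 (SE 0.22, adjusted p = 0.000313) corresponds to 10.6-fold, and the IFN-γ arrays differed more from each other than the medium arrays did. Cxcl10, a second ligand of the same receptor, read 5.38 and 5.37 in medium, also below the controls, and 6.04 and 6.47 with IFN-γ. Its groups did not overlap, and its difference of 0.88 (SE 0.16) passed only with the block (adjusted p = 0.0886, or 0.0049 with the block).

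The interferon-inducible GTPases, which act on membranes of vacuoles that hold intracellular pathogens, were higher as a group. All 9 measured members were higher on both IFN-γ arrays than on both medium arrays, as were 791 of all genes (9.59%). Limma called 5 of the 9 higher, and 9 with the block, against 0.182% and 0.509% of all genes. The median of the list was 1.44. Without 1 array in turn the count ran from 3 to 9.

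Iigp1, an immunity-related GTPase, read 7.24 and 7.57 in medium against 9.29 and 9.69 with IFN-γ, a difference of 2.08 (SE 0.18, adjusted p = 0.00197). The paired differences were 2.05 and 2.12, and another probe set of the gene rose by 1.86. Gbp2, a guanylate-binding protein, read 9.30 and 9.59 in medium against 10.98 and 11.22 with IFN-γ, a difference of 1.65 (SE 0.14, adjusted p = 0.00152) and paired differences of 1.67 and 1.64. Igtp (Irgm3) went from 8.16 and 8.46 to 9.62 and 9.93, a difference of 1.46 (SE 0.14, adjusted p = 0.0043). In these 3 genes the array 2 of each group was the brighter, and the paired differences were almost equal.

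Gbp7 read 7.39 and 7.77 in medium against 8.78 and 9.28 with IFN-γ (1.45, SE 0.21, adjusted p = 0.032). Gbp2b, below the antisense controls in medium at 5.04 and 4.88, read 5.99 and 6.81 with IFN-γ, so that its paired differences of 0.95 and 1.92 were far apart (1.44, SE 0.22, adjusted p = 0.0465). The other 4 GTPases passed only with the block, at differences of 1.19 for Gbp3 (adjusted p = 0.0892, or 0.00166), 1.14 for Irgm1 (0.0592, or 0.00326), 1.13 for Ifi47 (0.175, or 0.00338) and 1.02 for Irgm2 (0.0579, or 0.000764). Ifi47 shows what the block did: its arrays read 8.00 and 8.60 in medium against 9.09 and 9.75 with IFN-γ, a spread within groups of about the same size and direction, and its paired differences were 1.10 and 1.16.

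The promoters of the rising genes were searched for letters of elements known from interferon signalling, the GAS letters TTCNNNGAA and the ISRE core of GAAA, any 2 bases and GAAA, on both strands of the 300 bases from 250 before to 50 after the gene's start (RefSeq, GRCm38.p6). Of 8251 genes, 6572 had such a window, and where a gene had several the first was taken. Either motif was present in 8 of the 14 rises with a window (57.1%) and in 654 of all 6572 (9.95%). GAS letters were in 5 of the 14 and ISRE core letters in 5 of the 14, against 7.14% and 3.3% of all windows. Among the 35 windows of genes that rose with the block, 14 held either motif (40%). Either motif was also present in 3 of the 8 falls with a window (37.5%), and in 5 of the 32 with the block (15.6%). These are matches of letters in a window, not shown binding sites, and a window without them says nothing about sites elsewhere.

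Windows are printed for the largest rise and for 3 GTPases of the group, to show the motifs in place, each 5′ to 3′ along the gene's strand. Cxcl9 lies at chr5:92328030-92328329 on the minus strand, Gbp2 at chr3:142620413-142620712, Igtp at chr11:58199306-58199605 and Gbp7 at chr3:142530086-142530385, the last 3 on the plus strand. Capitals mark matches. In Cxcl9 they are an ETS core (GGAAGT) and an AP-1 match (TGANTCA), and the window holds no GAS or ISRE core letters. In Gbp2 they are, in order, AP-1, the ISRE core on the other strand and the ETS core on the other strand. In Igtp a GAS match is followed by an ISRE core, and Gbp7 holds a pair of GAS matches and an ISRE core on the other strand.
Cxcl9: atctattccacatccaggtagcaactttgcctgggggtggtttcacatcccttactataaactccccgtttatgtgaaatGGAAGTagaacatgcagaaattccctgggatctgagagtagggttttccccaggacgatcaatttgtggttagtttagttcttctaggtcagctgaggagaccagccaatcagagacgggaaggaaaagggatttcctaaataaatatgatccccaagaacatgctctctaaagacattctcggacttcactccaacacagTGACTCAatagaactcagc
Gbp2: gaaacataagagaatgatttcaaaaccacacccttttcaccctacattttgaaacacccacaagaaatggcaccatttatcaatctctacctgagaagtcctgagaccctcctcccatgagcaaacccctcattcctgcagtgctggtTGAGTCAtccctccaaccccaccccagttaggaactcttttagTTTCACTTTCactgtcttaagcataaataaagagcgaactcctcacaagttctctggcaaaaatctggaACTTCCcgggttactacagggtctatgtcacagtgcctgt
Igtp: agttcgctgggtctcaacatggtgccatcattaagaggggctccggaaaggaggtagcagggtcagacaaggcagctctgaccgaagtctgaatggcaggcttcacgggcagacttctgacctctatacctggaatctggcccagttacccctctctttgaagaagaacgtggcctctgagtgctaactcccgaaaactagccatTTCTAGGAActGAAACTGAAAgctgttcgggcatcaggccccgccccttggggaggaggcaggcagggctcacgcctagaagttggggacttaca
Gbp7: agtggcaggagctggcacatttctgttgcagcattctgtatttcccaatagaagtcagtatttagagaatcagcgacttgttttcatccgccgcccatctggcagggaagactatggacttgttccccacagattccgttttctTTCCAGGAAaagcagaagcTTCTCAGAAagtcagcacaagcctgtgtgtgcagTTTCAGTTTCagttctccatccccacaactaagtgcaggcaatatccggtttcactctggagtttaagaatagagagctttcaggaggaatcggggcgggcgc

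Transcription factors and inhibitors of the pathway rose in part. Irf1 read 9.64 on both medium arrays and 10.60 on both IFN-γ arrays, a difference of 0.96 (SE 0.10, adjusted p = 0.0075). Irf8, a factor that CD8+ DCs need for their development, read 9.60 and 9.53 in medium against 10.36 and 10.41 with IFN-γ (0.82, SE 0.10, adjusted p = 0.0158). Of 7 measured IRF genes these 2 rose, against 15 of all 8251 genes (0.182%). All 7 IRF differences were positive (4050 of 8251 over all genes), with a median of 0.20. The other 5 did not pass and lay between 0.06 (Irf3 and Irf4) and 0.27 (Irf5).

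Socs1, which blocks JAK activity in a feedback loop, read 8.16 and 7.96 in medium against 9.48 and 9.66 with IFN-γ, a difference of 1.51 (SE 0.18, adjusted p = 0.0137). The call was lost without array 2 of either 16-hour group. The other 4 measured SOCS family genes did not pass, and Socs3 differed by 0.14. None of 15 measured genes of the receptor, the JAK kinases, the STAT factors and their regulators was called, with or without the block. Ifngr1 differed by -0.24, Ifngr2 by -0.06, Jak1 by 0.02, Jak2 by -0.07 and Stat3 by 0.29.

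In antigen presentation, the peptide supply of MHC class I rose in part, while the MHC molecules themselves did not pass. Of 21 measured class I genes, 2 were higher by limma and 4 with the block, against 0.182% and 0.509% of all genes. The median of the 21 was 0.10. Tap1, a subunit of the transporter that brings peptides into the endoplasmic reticulum, read 9.74 and 9.72 in medium against 10.40 and 10.65 with IFN-γ (0.80, SE 0.13, adjusted p = 0.0499, or 0.00803 with the block). Ubd, a ubiquitin-like protein that marks others for the proteasome, read 5.11 and 4.62 in medium, below the antisense controls, and 6.02 on both IFN-γ arrays (1.16, SE 0.17, adjusted p = 0.035). Most fits without 1 array lost the calls of Tap1 and Ubd. Tap2, the other subunit of the transporter (0.62), and Psmb10, a subunit of the immunoproteasome (0.56, adjusted p = 0.0935, or 0.0144), passed with the block. Psmb9 (0.50), Tapbp (0.52) and Psmb8 (0.30) did not pass in either fit, and the class I genes H2-K1 and H2-D1 and the light chain gene B2m differed by -0.02, -0.01 and -0.07.

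None of 16 measured genes of MHC class II presentation was called in either fit, and their median was 0.02. Ciita, the class II transactivator, differed by 0.14, H2-Aa by -0.13 and Cd74 by 0.04, and the largest difference was that of H2-DMa (0.43, adjusted p = 0.377, or 0.0791 with the block). Of 30 measured genes of costimulation and maturation none was called either, with a median of -0.06. Cd40 differed by 0.33, Cd86 by 0.22, Cd80 by -0.20 and Cd83 by -0.13. Of 23 type I interferon-stimulated genes, none was called by limma and 1 with the block, Pml (0.63, adjusted p = 0.112, or 0.0217). The median of this list was 0.17, with 18 of 23 differences positive, against 4050 of 8251 over all genes. Ifit1 (0.40), Rsad2 (0.38) and Isg15 (0.27) did not pass.

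The remaining rises were genes of several functions. Cnn3, an actin-binding calponin and the only 1 of 37 measured actin and cell shape genes to pass, read 5.43 and 5.69 in medium, below the antisense controls, and 6.95 and 7.43 with IFN-γ (1.63, SE 0.18, adjusted p = 0.00905). Il18bp, which encodes a secreted protein that neutralises interleukin 18, read 7.83 and 7.93 in medium against 8.68 and 9.10 with IFN-γ (1.01, SE 0.14, adjusted p = 0.0305). Samhd1, an enzyme that breaks down deoxynucleotides and restricts viruses, read 9.22 and 9.37 against 10.11 and 10.17 (0.84, SE 0.11, adjusted p = 0.0166). Ppa1, a pyrophosphatase, went from 7.37 and 7.36 to 8.04 and 8.17 (0.74, SE 0.11, adjusted p = 0.0453), a call that was lost whichever array was left out.

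Several rises with the block alone were enzymes and secreted proteins. Fgl2, a secreted and membrane protein of the fibrinogen family, read 6.19 and 6.64 in medium against 7.45 and 8.20 with IFN-γ (1.40, SE 0.24, adjusted p = 0.0705, or 0.000553). Acod1, which makes itaconate, read 6.54 and 6.96 against 7.57 and 8.06 (1.07, SE 0.20, adjusted p = 0.0944, or 0.000702), with paired differences of 1.03 and 1.10. In both genes array 2 was the brighter in each group, and the groups did not overlap. Nampt, an enzyme of NAD synthesis, differed by 0.85 (adjusted p = 0.0987, or 0.00177) and Casp4, an inflammatory caspase, by 0.68 (0.388, or 0.00892). Procr (0.82), Klf4 (0.79), Il12rb1 (0.67) and Mgst1 (0.65) also passed with the block and lay below the antisense controls in medium. Wars, the tryptophanyl-tRNA synthetase, passed with the block alone (0.64, adjusted p = 0.0922, or 0.0155), and a dimmer probe set rose by 1.26 (adjusted p = 0.0177). Ido1, the enzyme that begins tryptophan breakdown, differed by -0.02, at the level of the antisense controls. Upp1 was called higher by limma on a probe set other than its brightest (0.95, adjusted p = 0.0129). Of the called probe sets that were higher, 2 had no gene name here, at differences of 2.43 and 1.73.

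**Figure D2:**
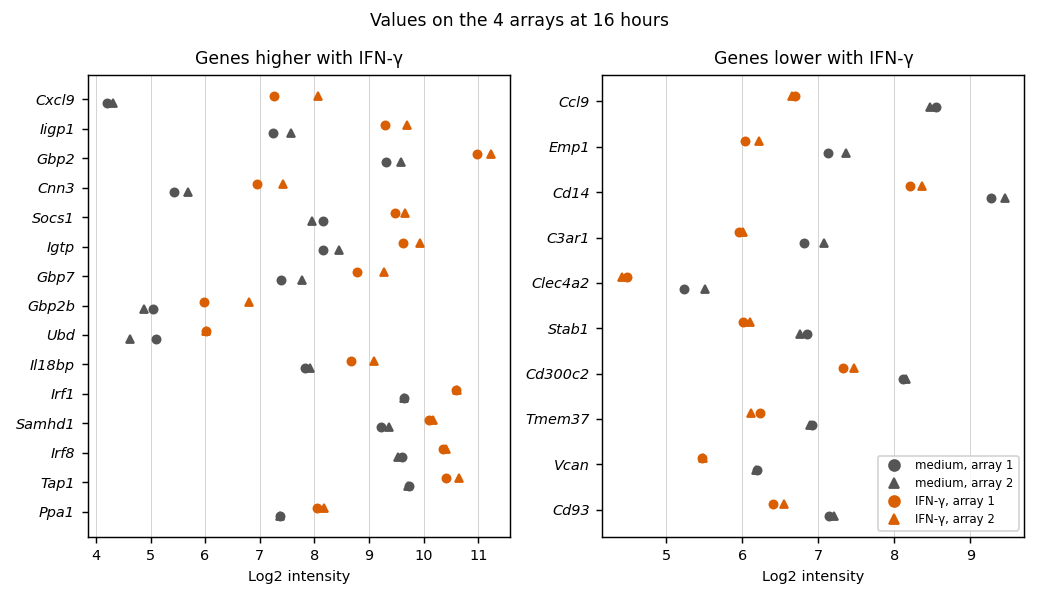
Log2 intensity on each of the 4 arrays at 16 hours for the 15 genes higher and the 10 genes lower with IFN-γ (limma, adjusted p under 0.05). Grey marks are medium and orange marks IFN-γ, circles array 1 and triangles array 2. The groups do not overlap in any of the 25 genes, which the rule for naming genes required.

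The falls were led by Ccl9, a chemokine that acts on myeloid cells through Ccr1. It read 8.54 and 8.47 in medium against 6.69 and 6.65 with IFN-γ, a difference of -1.83 (SE 0.11, adjusted p = 0.0002), or 3.56-fold lower. The paired differences were -1.85 and -1.82, and it was the only fall called whichever array was left out. Ccr1, its receptor, read 5.76 and 6.26 in medium against 5.12 and 5.60 with IFN-γ. That difference of -0.65 passed only with the block (adjusted p = 1, or 0.0184), and its paired differences were -0.64 and -0.66.

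Chemokines as a family went both ways. Of 25 measured chemokine genes, 1 rose and 1 fell by limma, Cxcl9 and Ccl9, and 4 rose and 1 fell with the block. Over all genes 0.182% rose and 0.121% fell by limma, and 0.509% and 0.448% with the block. The other block calls were Cxcl10 and the monocyte chemokines Ccl12 and Ccl8. Ccl12 lay below the antisense controls in both groups (0.76, adjusted p = 0.149, or 0.0338), and Ccl8 read 6.69 and 6.70 against 7.32 and 7.18 (0.55, adjusted p = 0.112, or 0.0184). Ccl22 (-0.43), Ccl3 (-0.30), Ccl2 (-0.24) and Ccl5 (-0.07) did not pass.

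Among the other falls were genes of surface receptors. Limma called 1 of 10 measured pattern recognition receptors lower, 2 of 19 complement genes, 3 of 16 scavenger and uptake receptors and 1 of 12 Fc receptors and adaptors. Over all genes it called 10 of 8251 lower (0.121%). A gene can stand in several lists, as Cd93 does in those of complement and monocytes, so the counts are not of separate genes. Cd14, the co-receptor that presents lipopolysaccharide to Tlr4, read 9.27 and 9.46 in medium against 8.21 and 8.37 with IFN-γ (-1.08, SE 0.13, adjusted p = 0.0137), or 2.11-fold lower. C3ar1, which encodes the receptor of complement C3a, went from 6.82 and 7.07 to 5.95 and 6.02 (-0.96, SE 0.12, adjusted p = 0.0166). Cd93, a C-type lectin-like receptor linked to the uptake of dying cells, read 7.14 and 7.21 in medium against 6.4 and 6.55 with IFN-γ (-0.70, SE 0.11, adjusted p = 0.0453). Stab1, a scavenger receptor, read 6.86 and 6.76 against 6.01 and 6.10 (-0.75, SE 0.12, adjusted p = 0.0499). Cd300c2, an activating receptor of the CD300 family, read 8.11 and 8.16 against 7.33 and 7.47 (-0.74, SE 0.11, adjusted p = 0.0453). In each of these 5 genes the difference was several times the gap between the arrays of a group.

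Clec4a2, an inhibitory C-type lectin, lay below the antisense controls in both groups, with 5.23 and 5.51 on the medium arrays and 4.48 and 4.41 on the IFN-γ arrays (-0.92, SE 0.13, adjusted p = 0.0272). Clec4d, an activating C-type lectin that recognises mycobacterial glycolipids, passed only with the block (-0.998, adjusted p = 0.343, or 0.00406), and its paired differences were -0.90 and -1.09. Emp1, a small membrane protein, read 7.13 and 7.37 in medium against 6.04 and 6.22 with IFN-γ (-1.12, SE 0.14, adjusted p = 0.0166). Tmem37, a membrane protein related to calcium channel subunits, read 6.92 and 6.89 against 6.24 and 6.12 (-0.72, SE 0.11, adjusted p = 0.035), and a second, dimmer probe set differed by 0.09. Vcan, a matrix proteoglycan of monocytes, read 6.19 and 6.18 in medium against 5.47 and 5.48 with IFN-γ, where it lay below the antisense controls (-0.71, SE 0.10, adjusted p = 0.035). Dab2 was called lower by limma on a probe set other than its brightest (-0.90, adjusted p = 0.035). A called probe set without a gene name here differed by -0.76 (adjusted p = 0.035). The calls of Stab1, Cd300c2, Vcan and Cd93 were lost whichever array was left out, and those of Emp1, Cd14 and Irf1 only without array 2 of medium at 16 hours. Most of the fits without 1 array also lost C3ar1, Clec4a2 and Tmem37. Among the rises they lost Gbp7, Gbp2b, Ubd, Il18bp, Samhd1, Irf8 and Tap1.

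Sequences of 3 of the falling genes are printed because letters of AP-1 (TGANTCA), the site of Fos and Jun dimers, were present in 5 of the 8 falls with a window (62.5%), against 404 of all 6572 windows (6.15%). The share was smaller in the larger set: of 32 windows of genes that fell with the block, 5 held these letters (15.6%), all 5 from the first set. The rises held them too, in 3 of 14 windows (21.4%), and in 7 of 35 with the block (20%). With the block the share was thus no larger in the falls than in the rises. ETS core letters were in 16 of the 32 windows of genes that fell with the block (50%) and in 3 of the 8 (37.5%). They were in 14 of the 35 windows of genes that rose with the block (40%) and in 27.5% of all windows. Ccl9 lies at chr11:83578587-83578886 on the minus strand, Emp1 at chr6:135362681-135362980 on the plus strand and C3ar1 at chr6:122856108-122856407 on the minus strand. Capitals mark an AP-1 and an ETS match in Ccl9 (the ETS letters on the other strand) and an AP-1 match in C3ar1. In Emp1 they mark an AP-1 and a GAS match, then a second AP-1 match that overlaps a second GAS match.
Ccl9: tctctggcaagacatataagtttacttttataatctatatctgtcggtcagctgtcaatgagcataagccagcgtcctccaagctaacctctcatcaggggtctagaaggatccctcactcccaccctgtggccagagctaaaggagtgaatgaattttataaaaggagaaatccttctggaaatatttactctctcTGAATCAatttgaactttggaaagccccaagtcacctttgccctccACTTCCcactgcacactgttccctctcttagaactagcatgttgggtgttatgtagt
Emp1: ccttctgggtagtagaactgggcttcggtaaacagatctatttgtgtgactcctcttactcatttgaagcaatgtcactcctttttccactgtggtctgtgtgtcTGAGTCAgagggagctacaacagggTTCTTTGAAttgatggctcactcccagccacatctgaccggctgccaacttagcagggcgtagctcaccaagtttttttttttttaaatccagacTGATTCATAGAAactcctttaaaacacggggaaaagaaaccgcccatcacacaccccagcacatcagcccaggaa
C3ar1: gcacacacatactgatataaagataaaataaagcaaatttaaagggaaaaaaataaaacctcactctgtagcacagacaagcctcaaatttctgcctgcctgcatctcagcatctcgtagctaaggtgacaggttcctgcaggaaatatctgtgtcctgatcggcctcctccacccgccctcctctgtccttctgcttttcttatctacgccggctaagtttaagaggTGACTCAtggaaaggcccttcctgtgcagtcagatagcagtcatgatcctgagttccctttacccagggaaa

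Of genes that encode AP-1 subunits and other immediate early factors, 25 were measured, and none was called by limma. With the block Fos (-0.80, adjusted p = 0.817, or 0.00359) and Ier3 (-0.60, adjusted p = 0.112, or 0.0188) were lower and Klf4 was higher. Fos read 5.71 and 6.23 in medium against 4.88 and 5.46 with IFN-γ, below the antisense controls, with paired differences of -0.84 and -0.77. Jun (0.16), Junb (0.08) and Jund (0.20) did not pass.

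Further falls that passed with the block were secreted and lysosomal proteins. Ctsl, the lysosomal protease cathepsin L, read 7.79 and 8.43 in medium against 6.88 and 7.09 with IFN-γ (-1.12, SE 0.19, adjusted p = 0.0592, or 0.00486). Il1b, the inflammatory cytokine interleukin 1 beta, read 7.72 and 8.00 against 6.79 and 7.19 (-0.87, SE 0.16, adjusted p = 0.0998, or 0.0019). Slpi, a secreted protease inhibitor, read 9.21 and 9.44 against 8.32 and 8.69 (-0.82, adjusted p = 0.0715, or 0.00544). None of these groups overlapped, and the spread between arrays of a group was largest for Ctsl in medium. Cfp, the complement protein properdin (-0.85, adjusted p = 0.0515, or 0.00945), Anxa3 (-0.90), S100a4 (-0.78) and the platelet-activating factor receptor gene Ptafr (-0.72) also passed with the block.

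Of 36 measured lysosomal genes, 28 had a negative difference, as did 4201 of all 8251 genes. Of the 36, 16 were lower on both IFN-γ arrays, against 792 of all genes (9.6%). None of the 36 was called by limma and 3 fell with the block: Ctsl, Cd63 (-0.55) and Man2b1 (-0.50). Among all genes 0.448% fell with the block. The median of the list was -0.14. Ctsc, which activates granzymes, differed by 0.55 in the other direction and did not pass. Abca1, an exporter of cholesterol, was the only 1 of 23 measured cholesterol genes to pass, with the block alone (-0.95, adjusted p = 1, or 0.0227). Its arrays read 5.34 and 6.16 in medium, then 4.28 and 5.32 with IFN-γ, so the gap within each group was close to the difference itself, and both group means were below the antisense controls.

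Markers of macrophages and monocytes were described beside these falls. Among 22 measured macrophage markers, 20 had a negative difference, as did 4201 of all 8251 genes. Of the 22, 11 were lower on both IFN-γ arrays, against 792 of all genes (9.6%). The median of the list was -0.23. None of the 22 was called by limma, and 5 fell with the block: Spic (-0.96), Lyz2 (-0.78), Apoe (-0.76), Mrc1 (-0.72) and Itgam (-0.55). With the block 37 of all 8251 genes fell (0.448%). The summed intensity of the 22 was 7440 and 8276 on the medium arrays and 5158 and 6097 on the IFN-γ arrays, so the groups did not overlap. Apoe and Lyz2, picked out after their values were seen, made up 3999 and 4620 of it in medium against 2257 and 2818 with IFN-γ. The 17 markers called in neither fit summed to 3320 and 3505 in medium against 2825 and 3185 with IFN-γ, again without overlap. The only 2 positive differences in the list were those of C1qb and C1qc. C1qa differed by -0.17, with both IFN-γ arrays below both medium arrays, C1qb by 0.30, with both above, C1qc by 0.11 and the Fc receptor gene Fcgr1 by -0.06. Csf1r (-0.49), Cd68 (-0.50) and Adgre1 (-0.36) did not pass. Mrc1, Spic, Mertk and Vcam1 lay below the antisense controls in both groups. The part of macrophages among the cells in the falls above was not tested. In RNA from a whole culture, fewer cells of a type and less RNA per cell cannot be told apart.

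Of 17 measured monocyte markers 5 fell, Ccl9, Emp1, Cd14, Vcan and Cd93, and 6 with the block. Over all genes 10 of 8251 fell (0.121%), or 37 (0.448%) with the block. The markers S100a8 (0.00), S100a9 (0.06), Ccr2 (-0.05) and Plac8 (0.21) did not pass. The summed intensity of all 17 was 9064 and 10050 in medium against 8683 and 9424 with IFN-γ, and that of the 12 that were not called was 7722 and 8606 in medium against 8090 and 8780 with IFN-γ, with overlap in both sums. The list was put together with results of these data known, so its count is no independent evidence of a direction.

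Markers of the CD8+ DC itself were detected. Cd8a read 8.74 and 8.85 in medium against 8.77 and 9.04 with IFN-γ, and Batf3, a factor that this subset needs, differed by 0.01. Of 15 measured identity genes, Irf8 rose and Flt3, the receptor for the ligand given to the mice, was lower with the block only (-0.47, adjusted p = 0.226, or 0.0386). Itgax (-0.12), Xcr1 (0.15, below the antisense controls in medium), Ly75 (0.07) and Cd24a (-0.29) did not pass, and neither did Cadm1 (-0.37), which was lower on both IFN-γ arrays, or Bcl6 (0.36). The summed intensity of the list was 3755 and 4016 in medium against 3917 and 4604 with IFN-γ. Without Irf8, the 14 genes left summed to 2978 and 3279 in medium against 2599 and 3239 with IFN-γ, and the groups overlapped. Clec9a and Tlr3 were not analysed here. Of 7 measured markers of CD11b+ DCs, 3 differences were positive and 4 negative. Clec4a2 was called lower, and with the block Itgam was lower too and Klf4 higher. Sirpa (-0.58), lower on both IFN-γ arrays, did not pass in either fit. Dimmer probe sets of Sirpa were called lower with the block (-0.69 and -0.58). The summed intensity of the 7 was 1152 and 1296 in medium against 1003 and 1111 with IFN-γ, without overlap.

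RNA of lymphocytes was also detected. The B cell genes Cd79b and Ms4a1 had group means of 10.04 and 9.25 in medium, and the T cell gene Cd3d of 8.23, and they differed by -0.01, -0.02 and -0.02 between the groups. None of 13 B cell markers, 17 T and NK cell markers or 8 plasmacytoid DC markers was called in either fit. In the B cell list 5 differences were positive and 8 negative. Cd79a (0.34) was higher on both IFN-γ arrays than on both medium arrays, and Vpreb3 (-0.34) and Fcer2a (-0.29) were lower on both. Summed B cell markers were 8772 and 8920 in medium against 8971 and 9429 with IFN-γ, without overlap. At 4 hours they were 8048 and 7568 in medium against 7255 and 7017 with IFN-γ, lower and also without overlap. Summed T and NK cell markers at 16 hours were 3450 and 3721 in medium against 3527 and 3801 with IFN-γ, and these groups overlapped. Klrb1c was not analysed here.

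**Figure D3:**
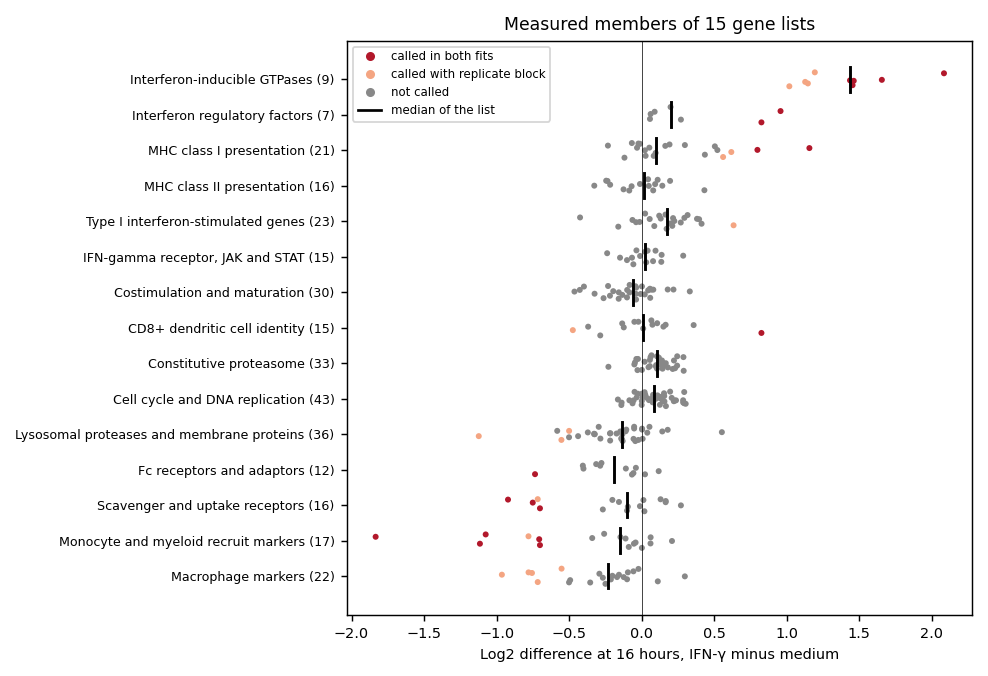
Log2 difference between IFN-γ and medium at 16 hours for each measured member of 15 gene lists, with the number measured in parentheses and a bar at each list's median. The GTPases lie wholly above 1 with a median of 1.44. Below 0 lie 20 of 22 macrophage markers and 4201 of all 8251 genes.

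Other housekeeping and metabolic lists held no call or few. None of 43 genes of the cell cycle and DNA replication passed, though 33 differences were positive, with a median of 0.08. The same held for 33 subunits and assembly factors of the constitutive proteasome, of which 27 were positive, with a median of 0.11. Over all genes, 4050 of 8251 differences were positive. None of 20 glycolysis genes, 54 respiratory chain genes, 30 heat shock and chaperone genes or 36 genes with ribosomal protein symbols was called in either fit. Of 24 cytokine genes Il18bp rose and Il1b fell, the latter with the block only, and Il12b (-0.02), Tnf (0.12), Il10 (0.17) and Il6 (0.17) did not pass.

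**Figure D4:**
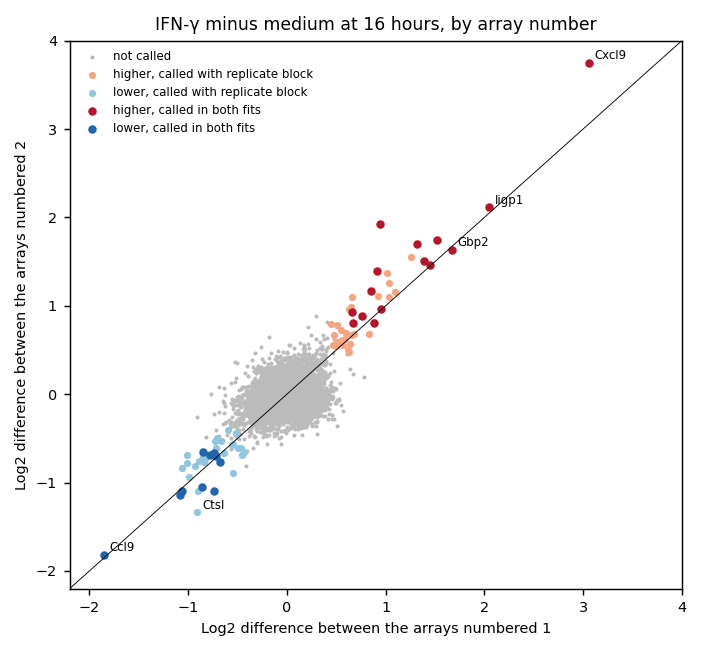
Log2 difference between IFN-γ and medium at 16 hours on the arrays numbered 2 against that on the arrays numbered 1, 1 point a gene, with the line of equality. Genes called in both fits lie along the line at the ends of the cloud, with Cxcl9 at 3.06 and 3.75 and Ccl9 at -1.85 and -1.82.

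Values at 4 hours were set beside those at 16 hours. The 2 comparisons share no arrays, though they share the estimate of spread. At 4 hours limma called 23 genes higher (0.279%) and 0 lower (0%), or 71 (0.861%) and 18 (0.218%) with the block, and 128 were lower at an unadjusted p under 0.05. All 15 genes that rose at 16 hours were also higher at 4 hours, 11 of them called there, and 14 with the block. Their median difference was 1.39 at 4 hours and 1.44 at 16 hours. All 10 falls of the later time had a negative difference at 4 hours, where none was called by limma and 4 were with the block. The median of the 10 was -0.40 at 4 hours and -0.84 at 16 hours. They were chosen for their size at 16 hours, which favours the later value, and of the 10 only Ccl9 and Emp1 passed the direct test of the difference between times, with the block alone. The 3' to 5' ratio of Actb was 2.04 and 2.20 on the medium arrays of 4 hours, which enter every 4-hour difference and every change over time in medium, and 1.47 to 1.68 on the other 6 arrays. That of Gapdh was 1.14 and 1.31 on those 2 arrays and 0.827 to 0.918 on the others. The part of RNA quality in these values was not tested. Over the 8172 genes called in neither fit at 16 hours, the differences at both times correlated with r = 0.17, as a description across genes measured on the same 8 arrays.

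Among the rises, Cxcl9 (4.13 at 4 hours, 3.40 at 16), Iigp1 (2.63, 2.08) and Ubd (2.08, 1.16) had the smaller difference at 16 hours, and Gbp2 (1.28, 1.65) and Il18bp (0.42, 1.01) the larger. Of these, none was shown to differ between the times. A test of the difference between the effects called 0 genes by limma, with a smallest adjusted p of 0.158 over all probe sets and 353 probe sets at an unadjusted p under 0.05. With the block it called 9 genes (0.109%), all with a more negative effect at 16 hours. Cxcl10 went from 2.35 at 4 hours to 0.88, a difference between effects of -1.47 (adjusted p = 0.00948 with the block). Ccl9 went from -0.53 to -1.83 (-1.30, adjusted p = 0.00852 with the block) and Emp1 from -0.33 to -1.12 (-0.79, adjusted p = 0.0371 with the block). Ptafr changed sides, from 0.58 to -0.72 (-1.31, adjusted p = 0.00626 with the block). Another Ptafr probe set went from 0.19 to -0.31, called at neither time in either fit. A further one, below the antisense controls, went from -0.03 to 0.05.

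**Figure D5:**
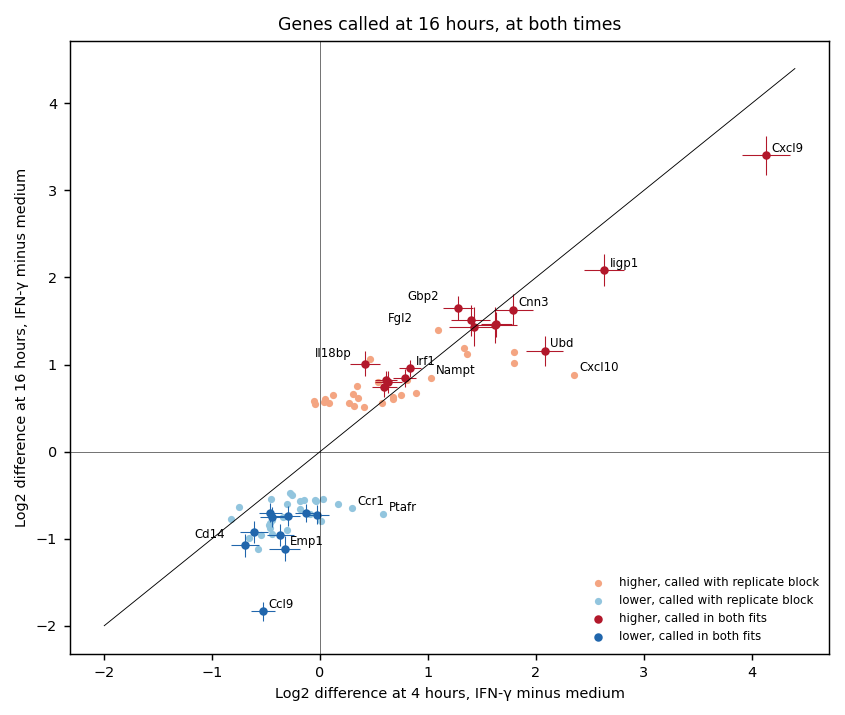
Log2 difference between IFN-γ and medium at 16 hours against that at 4 hours for the genes called at 16 hours, with the line of equality and bars of 1 SE on the genes called in both fits. The rises lie around the line, from Cxcl9 at 4.13 and 3.40 downwards. The falls called in both fits lie below it, with Ccl9 at -0.53 and -1.83. Of the falls called with the block alone, Lyz2 (-0.83 and -0.78) and Tgfbi (-0.75 and -0.63) lie above it.

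Levels of the falling genes were also set side by side over time in each treatment. All 10 falls were higher at 16 than at 4 hours in medium, Cd14 by 0.00, as were 4693 of all 8251 genes (56.9%), and 8 of the 10 were so with IFN-γ too. The 16-hour medium arrays enter both this change and the IFN-γ difference, so the values are set side by side only. In medium, C3ar1 read 5.41 and 5.56 at 4 hours, and it was higher by 1.46 at 16 hours in medium and by 0.87 with IFN-γ. Cd300c2 was higher by 1.41 in medium and by 0.97 with IFN-γ, and Stab1 by 1.12 and 0.81. For Emp1 these values were 0.74 and -0.05, and for Cd14, which was as bright at 4 hours, they were 0.00 and -0.38. Of the 15 rises, 3 were higher at 16 than at 4 hours in medium, Iigp1, Il18bp and Gbp2b.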

How the data were processed

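RNA samples were hybridised to 8 Affymetrix MG-U74Av2 arrays, 2 for each of 4 groups (medium or IFN-γ, 4 or 16 hours). The authors deposited 1 intensity per probe set and array, on a linear scale by its range, and RMA is named in the submitters' processing notes, without version or settings. Here log2 was taken with no pseudocount and no further normalization.

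The arrays hold 12488 probe sets, from which 66 controls were dropped. Of the 12422 tested, 10833 had 1 gene symbol in the platform annotation, 396 several and 1193 were unnamed here, and 10817 matched RefSeq (GRCm38.p6) by gene number. Of several probe sets of a gene, that of the highest mean over the 8 arrays was taken, which gave 8251 genes.

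limma 3.58.1 (R 4.3.3) fitted 4 group means over all 8 arrays, two-sided, with Benjamini-Hochberg adjustment over the 12422 probe sets and calls at 0.05. Where another adjusted p follows with "or", it comes from the fit in which the replicate number was a block. The 6 correlations between groups of the array 1 less array 2 deviations were 0.367 to 0.740, which pairs the arrays by number, though no label says so. The fits were tested on simulated data.

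The rule for named genes takes, of the brightest probe sets, the 15 largest rises and 15 largest falls called with both IFN-γ arrays beyond both medium arrays, up to 15 more each way called only with the block, up to 4 members of each list with the smallest p, the 8 genes with the smallest p for the difference between times, and a fixed set of pathway and marker genes. Members named beyond the rule show the range of their list and were chosen after their values were seen. The 35 lists, the rule and the tests were chosen with earlier results of these data known. Alternatives were the block, a fit of the 16-hour arrays alone (also with the block), quantile normalization, median centring, a trended and robust prior, dropping the dimmest 40% of probe sets, a pseudocount of 16, 1 mean value per gene, calls at an adjusted p under 0.01 or only at a log2 difference of at least 1, and each array left out in turn.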

Additional observations from a re-analysis of the deposited data

Results flagged for a closer look

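When the replicate number was a block, the effect of IFN-γ differed between 4 and 16 hours for 9 genes, all with a more negative effect at 16 hours. The fit without the block called none of them, and the cause was not tested. The differences, effect at 16 less effect at 4 hours, were -1.47 for Cxcl10, -1.31 for Ptafr and -1.30 for Ccl9. For the immunoglobulin gene Ighg3 the value was -1.15, on a probe set whose effect was 0.86 at 4 hours and -0.29 at 16 hours, and 3 of its 6 other probe sets also went from a positive effect at 4 hours (0.65 to 0.78) to a negative one at 16 hours (-0.33 to -0.15). The other 3 went from -0.21, -0.02 and -0.02 at 4 hours to 0.45, 0.35 and 0.21. For the zinc finger factor gene Ikzf1 it was -1.13 (0.98 at 4 hours, -0.15 at 16 hours). Another Ikzf1 probe set, below the antisense controls, had effects of 0.02 at 4 hours and -0.03 at 16 hours. Pvr, a receptor of the nectin family, differed by -0.97 (0.84 at 4 hours, -0.12 at 16 hours), Ccr1 by -0.94 and Emp1 by -0.79. The remaining gene was Cybb, a subunit of the phagocyte oxidase, at -1.04.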

How the results depend on the processing

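The 20 probe sets higher and 12 lower at 16 hours became 51 and 54 with the replicate block, 6 and 1 in a fit of the 16-hour arrays alone, and 139 and 190 in that fit with the replicate block. At an adjusted p under 0.01 they were 8 and 1. Quantile normalization gave 19 lower, and a log2 difference of at least 1 gave 3 lower. Without 1 array in turn the count of higher probe sets ran from 9 (without array 2 of medium at 16 hours) to 30 (without array 1 of IFN-γ at 16 hours), and that of lower ones from 1 (without array 2 of medium at 16 hours) to 11. The difference between times called 30 with the replicate block and 0 otherwise. The cause was not tested. No difference called in the main analysis changed sign under the alternatives run. Of the 15 genes that rose, 5 passed in every fit without 1 array (Igtp, Cnn3, Gbp2, Iigp1 and Cxcl9), and of the 10 that fell, 1 did (Ccl9). All 42 and 37 genes called higher and lower with the block were also called in the fit of the 16-hour arrays alone with the block. With 2 arrays in a group, small differences are beyond the reach of the test, and genes near the antisense controls have differences of uncertain size.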
